A study of Caenorhabditis elegans with 10 samples.

Results

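The genes csr-1, wago-1, prg-1, ego-1, drh-3, alg-1, alg-2, alg-3 and alg-4 encode Argonaute proteins of Caenorhabditis elegans or enzymes that make the small RNAs such proteins carry. They were chosen by name as Argonaute and small RNA pathway genes, 9 of the 46589 genes listed. All 9 were read in every library, with 23 to 15873 reads each, and all 9 were among the 15924 genes that passed the filter on low counts (at least 1 CPM, the reads of a gene scaled to a common library size, in at least 2 libraries).

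An Argonaute binds a short RNA and uses its sequence to find matching transcripts. In the worm germline, the RNA-dependent RNA polymerase EGO-1 and the helicase DRH-3 make secondary small RNAs on transcript templates, and these are loaded onto CSR-1, which protects and tunes expressed germline genes, or onto WAGO-1, which acts in silencing. PRG-1 is the Piwi protein that binds piRNAs and starts silencing of foreign sequences. ALG-1 and ALG-2 carry microRNAs and control the timing of development, and ALG-3 and ALG-4 act redundantly in germ cells that form sperm.

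The study asked how transcript levels change in each sex as the animals mature. Whole males, which make only sperm, and whole hermaphrodites, which form sperm as larvae and oocytes afterwards, were collected at 5 windows after hatching. Animals of 30 to 34 h were late L3 larvae, those of 36 to 40 h early L4 larvae and those of 42 to 46 h late L4 larvae, while animals of 48 to 52 h and of 54 to 58 h were both young adults. There was 1 library for each sex and window, 10 in all. All animals, males and hermaphrodites alike, carried him-5, a mutation that raises X chromosome loss in meiosis and so the number of males, and were grown at 20 °C on OP50 bacteria. Since RNA came from whole animals, fewer cells of a type and less RNA per cell cannot be told apart, and the hermaphrodite adult libraries can include RNA of eggs and embryos.

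Reads on genes ranged from 8189325 to 27907544 per library, and the 9 genes held 7336 to 44371 of them. Unaligned reads made up 3.31% to 25.4% of a library, with the highest share in the oldest males. The sexes matched their labels: over the 5 windows the male regulators mab-3 and her-1 were called higher and the yolk protein gene vit-2 lower in males. The summed level of 20 sperm genes lay between 653 and 2955 CPM in males, against 28.6 and 383 CPM in hermaphrodites, and that of 14 oocyte genes between 207 and 656 CPM in males, against 196 and 15390 CPM in hermaphrodites. Of the sperm genes, spe-29 had no read in the male library of 42 to 46 h, and spe-29 or spe-38 had none in 4 hermaphrodite libraries. Of the oocyte genes, perm-4 and nos-2 had none in the male library of 36 to 40 h. CPM values are scaled by trimmed means (TMM). Genes were called changed at an adjusted p below 0.05 in edgeR's quasi-likelihood test, fitted to all 15924 genes. Log2 ratios are male over hermaphrodite, and the value after ± is an approximate standard error, or an SD where named.

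In the Ensembl annotation of the assembly WBcel235, wago-1 (R06C7.1) lies on chromosome I from 7235384 to 7238792 on the plus strand, and drh-3 (D2005.5) on the same strand from 7820831 to 7826378. On the minus strand of that chromosome lie prg-1 (D2030.6), from 7585329 to 7588367, and ego-1 (F26A3.3), from 7650341 to 7656338. Chromosome IV holds csr-1 (F20D12.1), from 7957267 to 7962157, and alg-3 (T22B3.2), from 11704246 to 11708264, both on the plus strand. The gene alg-4 (ZK757.3) lies on chromosome III from 9887209 to 9891424 on the minus strand, alg-2 (T07D3.7) on chromosome II from 873212 to 879885 on the plus strand, and alg-1 (F48F7.1) on chromosome X from 13949110 to 13956261 on the plus strand. Counts were made per gene, so the 3 annotated transcripts of csr-1 were not told apart. An exon stretch of 438 bases, 11.9% of the exon length of csr-1, is shared with frpr-10 on the same strand, a gene with 3 to 80 reads in males and 0 to 1 in hermaphrodites. Reads within that stretch may have been given to neither gene, but the annotation and settings of the count are not given.

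**Figure D1:**
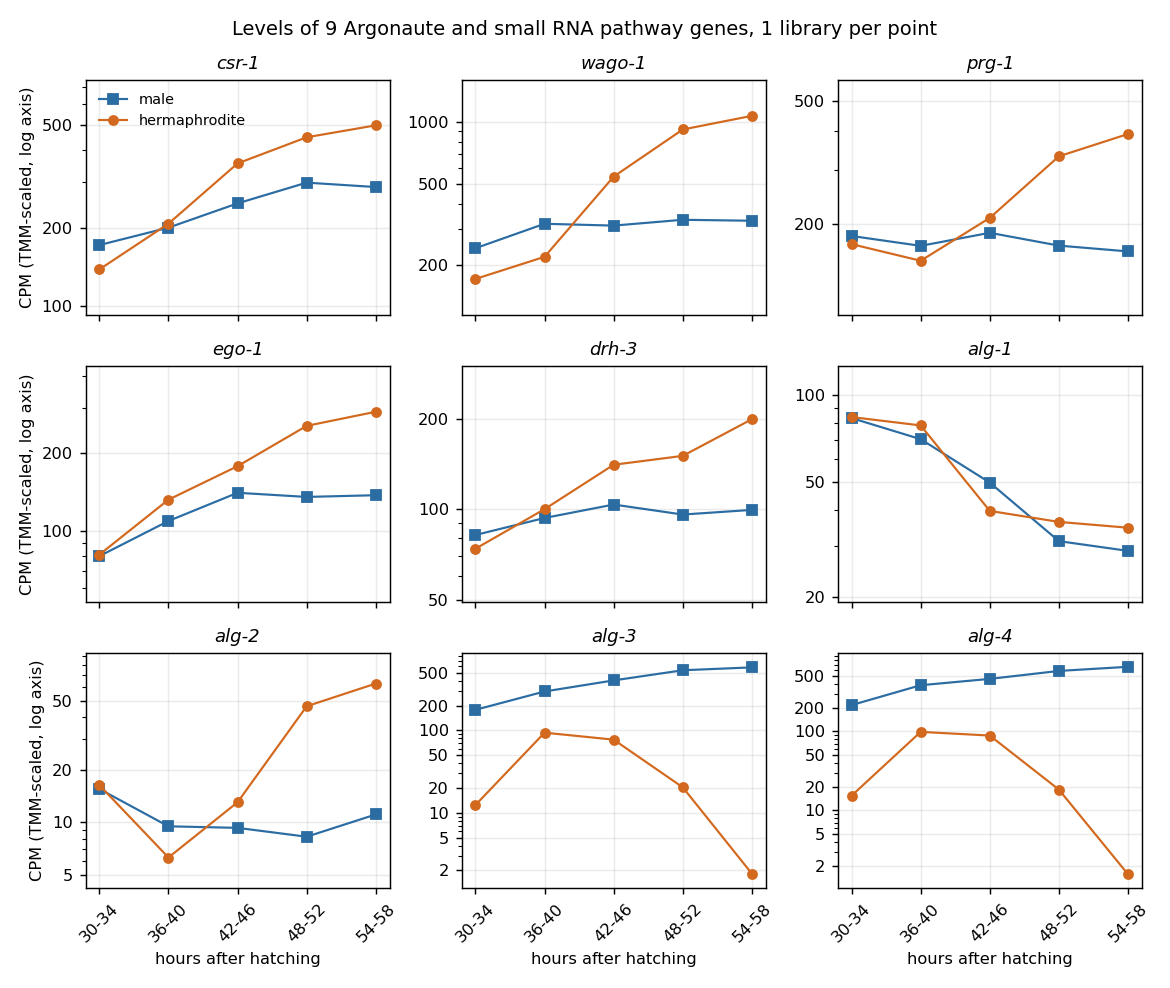
TMM-scaled CPM (log axis) of the 9 genes against hours after hatching, in males (squares) and hermaphrodites (circles), with 1 library per point. The male line lies above the hermaphrodite line at all 5 windows for alg-3 and alg-4, and below it from 42 to 46 h on for csr-1, wago-1, prg-1, ego-1, drh-3 and alg-2.

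The sperm Argonautes alg-3 and alg-4 were higher in males than in hermaphrodites at all 5 windows, by 3.16-fold at the least and 422-fold at the most. In order of time, alg-3 stood at 178, 296, 404, 537 and 582 CPM in males, against 12.4, 93.8, 77.2, 20.4 and 1.82 CPM in hermaphrodites. The male libraries were each higher than the one before, while in hermaphrodites the level was highest at 36 to 40 h and lowest at 54 to 58 h. For alg-4 the levels were 215, 383, 461, 581 and 655 CPM in males and 15.3, 98.4, 88.4, 18.3 and 1.55 CPM in hermaphrodites. The last hermaphrodite library held 27 reads of alg-3 and 23 of alg-4, and the male library of the same window held 7542 and 8496.

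Over the 5 windows, with each window as a block, alg-3 was higher in males by 3.92 ± 0.94 on the log2 scale (15.1-fold, adjusted p = 0.0326) and alg-4 by 4.05 ± 0.97 (16.5-fold, adjusted p = 0.0326). They were the only 2 of the 9 genes called higher in males, where 15.3% of all genes tested were, and none of the 9 was called lower, against 3.56% of all genes. Neither call was made without the pair of libraries of 30 to 34 h, of 42 to 46 h or of 48 to 52 h. Adjusted p for the 2 genes then lay between 0.0552 and 0.116. With a filter of at least 5 CPM in 5 libraries it was 0.0503, and neither was called. Of all genes, 3003 were called in the main fit, and 2621, 301 and 116 without those pairs, in order of time. With that filter 1350 were called.

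In young adults, the stage with 2 libraries per sex, alg-3 averaged 559 ± 31.6 CPM in males and 11.1 ± 13.1 CPM in hermaphrodites (SD, n = 2 each), a log2 ratio of 5.65 ± 1.07 (adjusted p = 0.00586). The same comparison gave 618 ± 52.6 CPM in males and 9.93 ± 11.8 CPM in hermaphrodites (SD, n = 2 each) for alg-4, a log2 ratio of 5.96 ± 1.10 (adjusted p = 0.00532). In hermaphrodites the spread between the libraries of 48 to 52 h and 54 to 58 h exceeded the mean for both genes, and the sexes did not overlap. Without the hermaphrodite library of 48 to 52 h the log2 ratio was 8.25 for alg-3 and 8.63 for alg-4, without that of 54 to 58 h it was 4.78 for alg-3 and 5.08 for alg-4, and both genes were called each time. The fits that also moved the fold by over 1.5 times were limma-voom (6.45 for alg-3 and 6.79 for alg-4) and the fit with window as a block (6.38 for alg-3 and 6.69 for alg-4).

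For the mid-course peak in hermaphrodites, the coefficient of the squared 6 h step was tested. That coefficient is negative for a level that is highest in the middle windows, but also for a rise that levels off or a fall that steepens. It therefore measures a bend of the course and not a peak as such. It was -1.04 ± 0.08 for alg-3 (adjusted p = 0.000462) and -1.05 ± 0.08 for alg-4 (adjusted p = 0.000376), and these were the 2 of the 9 genes called, where 6.05% of all genes were called negative. In males the coefficient was -0.09 ± 0.07 for both genes. No gene at all was called in males by edgeR (0.0% of 15924), where 860 had an unadjusted p below 0.05, limma-voom called 0 and DESeq2 called 160, none of them among the 9. The difference of the coefficients, male minus hermaphrodite, was chosen as a comparison after the peak was seen. It was 0.95 ± 0.11 for alg-3 (adjusted p = 0.00482) and 0.96 ± 0.10 for alg-4 (adjusted p = 0.00388), the 2 genes called of 9, where 3.38% of all genes were called positive. Both were lost without the male library of 30 to 34 h or that of 54 to 58 h. There adjusted p for the 2 genes lay between 0.0809 and 0.141, and 0 of all genes tested were called. Linear slopes per 6 h step did not pass the test for alg-3 in males (0.43 ± 0.39, adjusted p = 0.555) or in hermaphrodites (-0.95 ± 0.61, adjusted p = 0.24), nor for alg-4 in males (0.38 ± 0.39, adjusted p = 0.609) or in hermaphrodites (-1.06 ± 0.64, adjusted p = 0.214).

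The levels of both genes rose and fell over the same windows as the summed level of the sperm genes, though not in proportion to it. All 19 tested genes of the sperm list were called higher in young adult males, where 33.0% of all genes tested were. In hermaphrodites the summed list was highest at 36 to 40 h (383 CPM) and lowest at 54 to 58 h (28.6 CPM). Per 1000 reads of the summed sperm list, the reads of alg-3 numbered 272, 238, 209, 195 and 197 in males in order of time, against 180, 245, 203, 157 and 63.8 in hermaphrodites. The corresponding values for alg-4 were 328, 307, 238, 211 and 222 in males, against 222, 257, 232, 141 and 54.4 in hermaphrodites. Relative to the sperm list the sexes were therefore close at 36 to 40 h and 42 to 46 h for alg-3, and the hermaphrodite value was lowest at 54 to 58 h, when the list itself held 423 reads. In males both genes were highest relative to the list at 30 to 34 h. The part of sperm number in the sex difference was not tested.

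**Figure D2:**
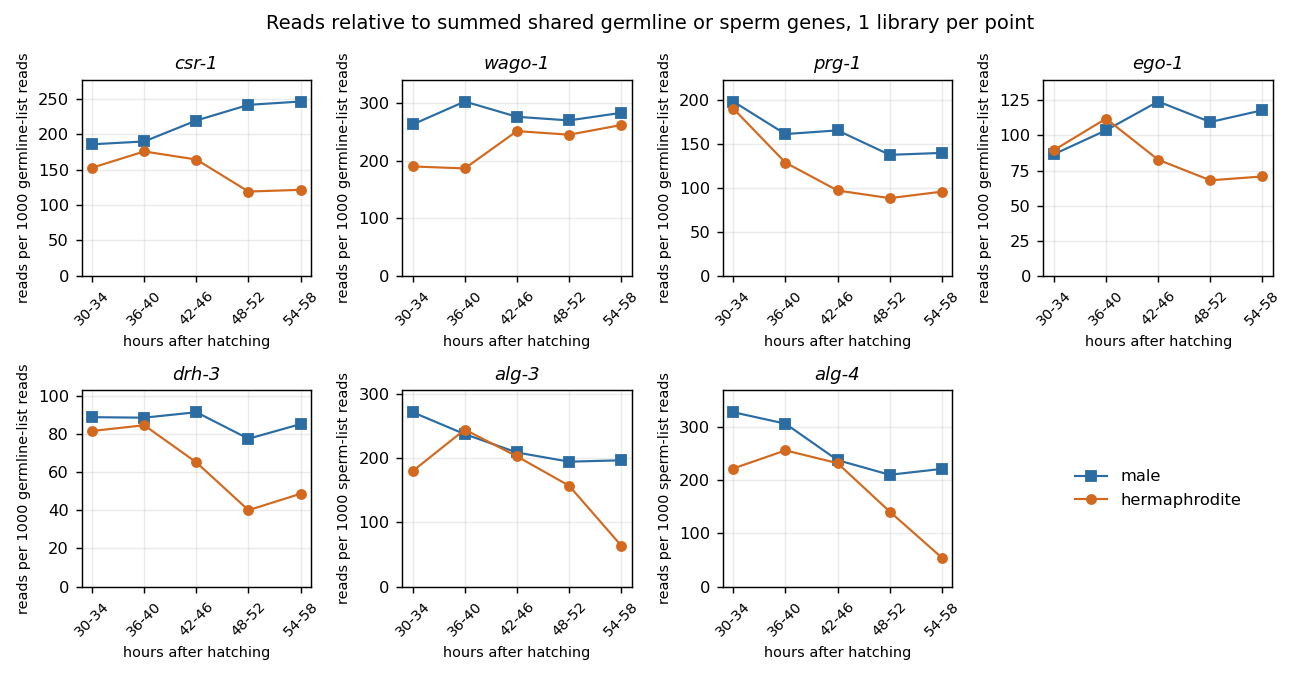
Reads of each gene per 1000 reads of the summed shared germline list (csr-1, wago-1, prg-1, ego-1, drh-3) or of the summed sperm list (alg-3, alg-4), against hours after hatching, in males (squares) and hermaphrodites (circles), 1 library per point. From 42 to 46 h on, the 5 germline genes are higher in males on this scale, with wago-1 the closest to equal at 276 in young adult males against 253 in young adult hermaphrodites.

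The genes of the secondary small RNA and piRNA pathways showed a different course. In males csr-1, wago-1, prg-1, ego-1 and drh-3 varied between 1.15-fold (prg-1) and 1.76-fold (ego-1) over the 5 windows, whereas in hermaphrodites they varied between 2.58-fold (prg-1) and 6.24-fold (wago-1), and for all 5 the last hermaphrodite window was the highest. In young adults all 5 were called lower in males, where 29.4% of all genes tested were.

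For the makers of secondary small RNAs, ego-1 stood at 79.9, 109, 141, 136 and 138 CPM in males, against 81.0, 132, 178, 256 and 290 CPM in hermaphrodites, in order of time. For its helicase partner drh-3 the levels were 82.1, 93.6, 104, 96.0 and 99.5 CPM in males and 73.9, 100.1, 141, 151 and 199 CPM in hermaphrodites. The sexes differed little at 30 to 34 h and did not overlap in young adults. In that comparison ego-1 was lower in males by a log2 ratio of -0.997 ± 0.18 (2-fold, adjusted p = 0.0048) and drh-3 by -0.84 ± 0.21 (1.79-fold, adjusted p = 0.0164). The call for drh-3 was lost without either male library (adjusted p 0.0577 and 0.0689) and with scaling by library size only (adjusted p = 0.0718).

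Among the Argonautes they supply, wago-1 stood at 242, 319, 312, 334 and 330 CPM in males and 172, 220, 542, 920 and 1072 CPM in hermaphrodites. Males were thus higher at the first 2 windows, by 1.41-fold and 1.45-fold, and hermaphrodites at the last 3, by up to 3.25-fold. In young adults the log2 ratio was -1.59 ± 0.17 (3-fold lower in males, adjusted p = 0.00101). The levels of csr-1 were 171, 200.1, 248, 299 and 287 CPM in males and 138, 207, 354, 447 and 497 CPM in hermaphrodites. In young adults csr-1 was lower in males by a log2 ratio of -0.69 ± 0.17 (1.61-fold, adjusted p = 0.0136), a call that was lost without the hermaphrodite library of 54 to 58 h (adjusted p = 0.0563) and with scaling by library size only (adjusted p = 0.0761).

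The Piwi gene prg-1 stood at 183, 170, 187, 170 and 163 CPM in males, the narrowest range of the 9 genes in that sex, and at 172, 152, 209, 332 and 392 CPM in hermaphrodites. The sexes stayed within 1.12-fold of each other up to 42 to 46 h. In young adults prg-1 was lower in males by a log2 ratio of -1.12 ± 0.18 (2.17-fold, adjusted p = 0.00349).

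Together with alg-2, a microRNA Argonaute gene, these made 6 of the 9 genes called lower in young adult males, where 29.4% of all genes tested were called lower, and alg-3 and alg-4 were the 2 called higher, where 33.0% were. The median log2 ratio of the 9 genes was -0.84, beside 0.31 over all genes tested. The latter depended on the filter on low counts, at 0.0 with no filter and -0.02 with at least 5 CPM in 5 libraries. Scaling by library size only moved the median over all genes to 0.62. Relative to that median, csr-1 stood at -0.996 under both scalings and drh-3 at -1.15 with TMM and -1.14 by library size. A change of scaling shifts all genes by nearly the same amount. These values could therefore hardly differ, and they do not bear on the calls lost by library size. Over the 5 windows the log2 ratios of the 5 germline genes ran from -0.33 ± 0.22 (csr-1) to -0.59 ± 0.39 (wago-1), with adjusted p from 0.128 to 0.287.

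**Figure D3:**
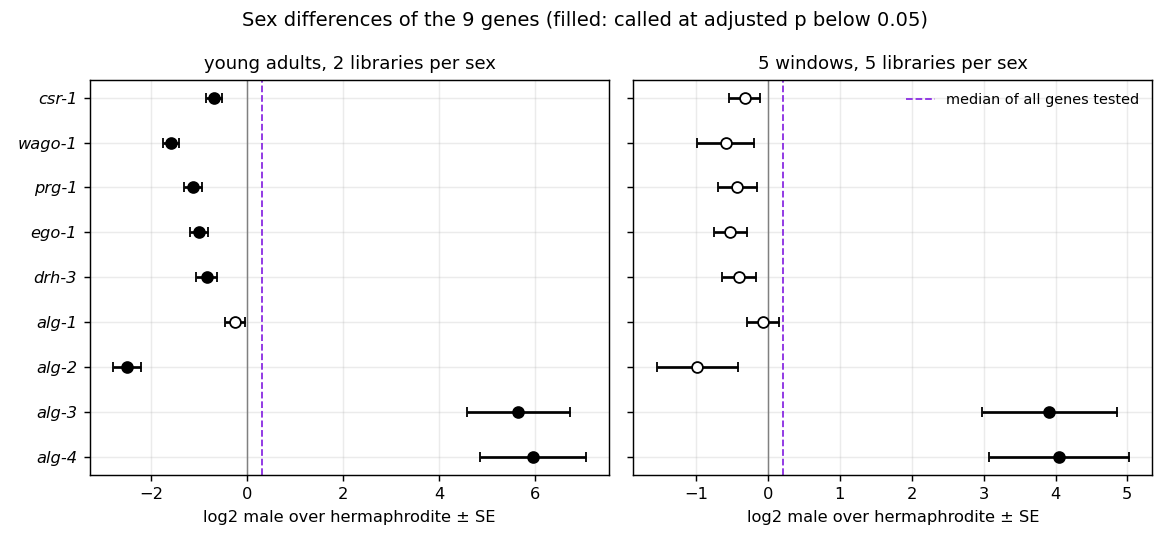
Log2 ratios, male over hermaphrodite, with approximate standard errors, for the 9 genes in young adults (left, 2 libraries per sex) and over 5 windows (right, 5 libraries per sex). Filled points were called, the dashed line is the median over all genes tested, and the only points right of that line are alg-3 and alg-4.

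Time courses within each sex were tested as linear slopes per 6 h step in a fit to all 10 libraries. In hermaphrodites 6 of the 9 genes rose, where 20.9% of all genes did, and 1 fell, where 16.9% did. The steepest rise was that of wago-1 at 0.74 ± 0.08 per step (1.67-fold, adjusted p = 0.0013), followed by alg-2 at 0.60 ± 0.18 (adjusted p = 0.032), csr-1 at 0.48 ± 0.07 (adjusted p = 0.00158) and ego-1 at 0.46 ± 0.07 (adjusted p = 0.00177). The slopes of drh-3 and prg-1 were shallower, at 0.35 ± 0.05 (adjusted p = 0.00207) and 0.34 ± 0.06 (adjusted p = 0.00422). Without the hermaphrodite library of 54 to 58 h, prg-1 (adjusted p = 0.0552) and alg-2 (adjusted p = 0.189) were not called, and alg-2 was not called without that of 48 to 52 h either (adjusted p = 0.0684).

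In males none of the 9 genes was called, where 0.59% of all genes were in either direction. At an unadjusted p below 0.05 the male slopes of 3084 genes passed. DESeq2 called csr-1 (0.27 per step, adjusted p = 0.00146), ego-1 (0.25, adjusted p = 0.0094) and alg-1 (-0.36, adjusted p = 0.00272), and limma-voom called alg-1 alone (-0.43, adjusted p = 0.018). In edgeR these slopes were 0.21 ± 0.06 for csr-1 (adjusted p = 0.141), 0.19 ± 0.07 for ego-1 (adjusted p = 0.182) and -0.42 ± 0.08 for alg-1 (adjusted p = 0.0577).

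The difference of slopes itself, male minus hermaphrodite with window as a block, was called for 3 of the 9 genes, all negative, where 10.2% of all genes were called negative and 5.6% positive. It was -0.64 ± 0.10 for wago-1 (adjusted p = 0.0256), -0.38 ± 0.09 for prg-1 (adjusted p = 0.0398) and -0.29 ± 0.07 for drh-3 (adjusted p = 0.0468). For csr-1 (-0.27 ± 0.07, adjusted p = 0.0515), alg-2 (-0.79 ± 0.21, adjusted p = 0.0517) and ego-1 (-0.27 ± 0.07, adjusted p = 0.055) it did not pass. These calls rested on few libraries. Those of wago-1 and prg-1 were lost without any single library of the last 4 windows, with adjusted p up to 0.158 and 0.261. In those fits 0 of all genes tested were called, so these losses were not particular to the 9 genes. The call of drh-3 was lost without any of the 10 libraries, with adjusted p up to 0.291. With scaling by library size only, prg-1 (adjusted p = 0.0563) and drh-3 (adjusted p = 0.146) were not called.

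In hermaphrodites the summed markers of the germline and of oocytes rose with these genes, while those of neurons and of muscle fell. The shared germline list of 20 genes summed to between 923 and 1237 CPM in males, against 905 and 4094 CPM in hermaphrodites, with no gene at 0 in any library. In young adults 18 of its 20 genes and all 14 oocyte genes were called lower in males, where 29.4% of all genes tested were. Of 7 neuron genes 6 were called higher and 1 lower. Of 5 muscle genes 4 were called higher, where 33.0% of all genes tested were. Of 5 intestine genes 1 was called lower and none higher. They summed to between 756 and 1647 CPM in males, against 851 and 2728 CPM in hermaphrodites. The neuron genes summed to 385, 493, 454, 406 and 416 CPM in males, against 272, 206, 139, 125 and 117 CPM in hermaphrodites, in order of time. The muscle genes summed to between 7347 and 11720 CPM in males, against 3090 and 7906 CPM in hermaphrodites, where the last window was the lowest. No neuron or muscle gene was at 0 in any library, and the part of these tissues in the results was not tested. Per 1000 reads of the summed germline list, the reads of csr-1 numbered 186, 190, 219, 241 and 246 in males, against 153, 176, 164, 119 and 121 in hermaphrodites. On this scale the order of the sexes in young adults was the opposite of that in CPM, with 244 ± 3.3 reads in males and 120.2 ± 1.71 reads in hermaphrodites (SD, n = 2 each), 2.03-fold higher in males.

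The same held for the other 4 genes, as a description with no test. In young adults drh-3 had 81.5 ± 5.44 reads per 1000 in males and 44.4 ± 6.11 in hermaphrodites, ego-1 had 114 ± 5.94 in males and 69.4 ± 1.94 in hermaphrodites, and prg-1 had 139 ± 1.54 in males and 92.0 ± 5.22 in hermaphrodites (SD, n = 2 each). For wago-1 the values were the closest, at 276 ± 9.33 in males and 253 ± 11.9 in hermaphrodites (SD, n = 2 each), 1.09-fold higher in males. Leaving the pgl and glh genes out of the list gave ratios of 2.14 for csr-1, 1.93 for drh-3, 1.73 for ego-1, 1.59 for prg-1 and 1.15 for wago-1. At 30 to 34 h prg-1 had 198 reads in males against 190 in hermaphrodites, drh-3 had 89.0 in males against 81.7 in hermaphrodites, and ego-1 had 86.6 in males against 89.5 in hermaphrodites. At that window the sexes lay farther apart for wago-1, with 263 reads in males against 190 in hermaphrodites, than in young adults. The list itself was lower in young adult males, so this scale compares the genes with other germline transcripts and not with the whole animal.

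The microRNA Argonautes alg-1 and alg-2, whose proteins act largely redundantly, had different courses. The levels of alg-1 were 83.3, 70.4, 49.8, 31.2 and 28.8 CPM in males and 84.0, 78.6, 39.7, 36.4 and 34.7 CPM in hermaphrodites, so that both sexes were highest at 30 to 34 h and lowest at 54 to 58 h. The slope was -0.42 ± 0.08 per step in males and -0.37 ± 0.08 in hermaphrodites, where it was called (adjusted p = 0.00712). The difference of slopes was -0.06 ± 0.10 (adjusted p = 0.698). In young adults the log2 ratio of alg-1 was -0.24 ± 0.21 (adjusted p = 0.35), the only one of the 9 not called, and over the 5 windows it was -0.07 ± 0.23 (adjusted p = 0.838). With scaling by library size only its sign was positive in both comparisons, at 0.07 in young adults and 0.04 over the 5 windows. The sexes came as close for no other gene of the 9 in these comparisons.

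In contrast alg-2 stood at 15.6, 9.49, 9.3, 8.27 and 11.1 CPM in males and 16.4, 6.28, 13.04, 46.4 and 62.6 CPM in hermaphrodites. The hermaphrodite libraries of 48 to 52 h and 54 to 58 h stood apart from the 8 others. In young adults alg-2 was lower in males by a log2 ratio of -2.49 ± 0.29 (5.62-fold, adjusted p = 0.00131), and over the 5 windows the ratio was -0.98 ± 0.57 (adjusted p = 0.221). Per length of exon, alg-1 was 3.31-fold above alg-2 in males and 3.18-fold in hermaphrodites at 30 to 34 h. At 54 to 58 h this ratio was 1.61 in males and 0.34 in hermaphrodites, so alg-2 was the higher of the pair in adult hermaphrodites.

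Levels of the genes were compared with each other as CPM per kb of exon. In young adult males the order was alg-4 at 178 ± 15.2, alg-3 at 171 ± 9.66, wago-1 at 109 ± 0.84, csr-1 at 79.8 ± 2.23, prg-1 at 62.5 ± 1.9, drh-3 at 27.9 ± 0.7, ego-1 at 25.8 ± 0.28, alg-1 at 4.48 ± 0.25 and alg-2 at 2.34 ± 0.48 CPM per kb (SD, n = 2). Of neighbours in this order, alg-4 and alg-3 overlapped. In young adult hermaphrodites the order was wago-1 at 326 ± 35.2, prg-1 at 136 ± 15.9, csr-1 at 129 ± 9.66, ego-1 at 51.6 ± 4.58, drh-3 at 49.9 ± 9.85, alg-2 at 13.2 ± 2.77, alg-1 at 5.3 ± 0.17, alg-3 at 3.39 ± 4 and alg-4 at 2.87 ± 3.42 CPM per kb (SD, n = 2). There prg-1 overlapped csr-1, ego-1 overlapped drh-3, and alg-1, alg-3 and alg-4 overlapped each other.

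**Figure D4:**
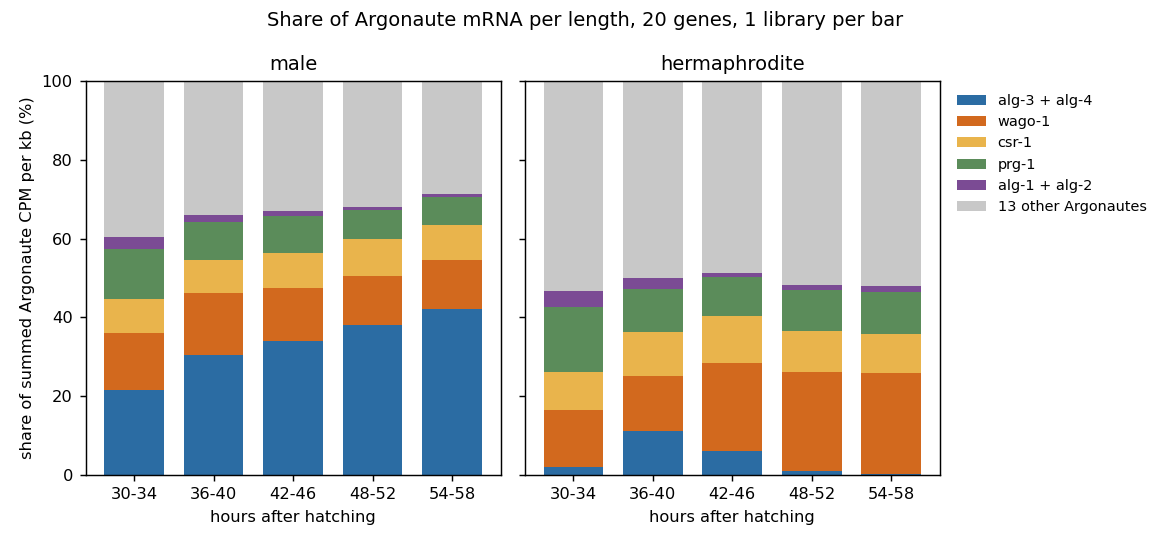
Share of the summed CPM per kb of 20 Argonaute genes held by the named genes, for each window in males (left) and hermaphrodites (right), 1 library per bar. The bar segment of alg-3 and alg-4 grows with each male window to 42.1%, and in hermaphrodites it is largest at 36 to 40 h with 11.1%.

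As a share of the summed CPM per kb of 20 Argonaute genes, alg-3 and alg-4 together held 21.5%, 30.4%, 33.9%, 38.01% and 42.1% in males in order of time, and 2.1%, 11.1%, 6.14%, 0.96% and 0.07% in hermaphrodites. The share of wago-1 was 12.4% to 15.8% in males, and in hermaphrodites it was 14.4% at 30 to 34 h and 25.7% at 54 to 58 h. The share of csr-1 was 8.25% to 9.33% in males and 9.61% to 12.1% in hermaphrodites. The summed level itself was 541, 661, 757, 872 and 871 CPM per kb in males and 392, 513, 799, 1193 and 1367 CPM per kb in hermaphrodites. With a length taken from the longest transcript in place of all exons, the mean level per kb over the 10 libraries was 77.2 in place of 72.65 for alg-4 and 8.545 in place of 8.02 for alg-1.

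Among the 13 Argonautes outside the 9 genes, wago-10 was, like alg-3 and alg-4, higher in males at every window. Its levels were 51.2, 55.0, 95.8, 122 and 98.9 CPM in males and 10.1, 40.7, 10.2, 1.87 and 0.47 CPM in hermaphrodites. In young adults its log2 ratio was 6.53 ± 0.59 (adjusted p = 0.00075), and over the 5 windows 3.77 ± 1.12 (adjusted p = 0.0515). In the same young adult comparison ergo-1, an Argonaute of primary small RNAs in oocytes and embryos, was lower in males by 2.94 ± 0.21 on the log2 scale (adjusted p = 0.00044), and alg-5, a microRNA Argonaute of the germline, by 2.72 ± 0.24 (adjusted p = 0.000673). Of the 12 tested, 2 were called higher in young adult males, wago-10 and sago-1 (0.92 ± 0.25, adjusted p = 0.0191), and 8 lower. Of all genes tested, 33.0% were called higher and 29.4% lower in that comparison. Over the 5 windows 2 of the 12 were called lower, where 3.56% of all genes were. They were wago-4 (-1.53 ± 0.31, adjusted p = 0.0267), which acts in inherited silencing, and vsra-1 (-1.02 ± 0.29, adjusted p = 0.0459).

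The other pathway genes, 88 in 8 lists with the 13 Argonautes included, were mostly lower in young adult males, as the germline members were. In young adults 71 of 87 tested were called lower in males and 2 higher, with a median log2 ratio of -1.45, beside 0.31 over all genes tested, of which 29.4% were called lower and 33.0% higher. Over the 5 windows 7 were called lower and none higher, where 3.56% of all genes were lower and 15.3% higher. In hermaphrodites, where 20.9% of all genes rose and 16.9% fell, 67 rose over the course and 2 fell, wago-10 (-1.56 ± 0.40 per step, adjusted p = 0.0174) and sid-2 (-0.44 ± 0.12, adjusted p = 0.0224). The genes sago-1 and sid-2 were named after their values were seen. The difference of slopes, negative for 10.2% and positive for 5.6% of all genes, was called negative for 41 and positive for 1, which was wago-10 (1.59 ± 0.39, adjusted p = 0.0454). Since these comparisons share libraries, their counts are not independent of each other.

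Of the 10 genes of the Dicer and microRNA pathway, 8 were called lower in young adult males, where 29.4% of all genes tested were. They included drsh-1, the nuclear RNase that cuts microRNA precursors (-2.24 ± 0.20, adjusted p = 0.00076), its partner pash-1 (-2.20 ± 0.23, adjusted p = 0.000982) and the exonuclease gene xrn-2 (-1.96 ± 0.25, adjusted p = 0.00162). Over the 5 windows pash-1 (-1.39 ± 0.39, adjusted p = 0.0468) and xrn-2 (-1.25 ± 0.34, adjusted p = 0.0425) were called lower, where 3.56% of all genes tested were. All 3 lay below 35 CPM in every male library, and drsh-1 reached 142 CPM in hermaphrodites of 54 to 58 h, against 28.1 CPM in males of that window.

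The ERI pathway makes the primary small RNAs that ALG-3, ALG-4 and ERGO-1 bind. The list of this pathway has 8 genes, not all of which need act in it. In young adult males 7 of them were called lower, where 29.4% of all genes tested were, and none higher, where 33.0% were. Those called lower included eri-7 (-2.39 ± 0.32, adjusted p = 0.00192), the exonuclease gene eri-1 (-1.57 ± 0.22, adjusted p = 0.00231) and the phosphatase gene pir-1 (-1.26 ± 0.24, adjusted p = 0.00616). Its RNA-dependent RNA polymerase rrf-3 lay between 76.1 and 92.5 CPM in males, against 54.1 and 156 CPM in hermaphrodites, with a log2 ratio of -0.20 ± 0.25 over the 5 windows (adjusted p = 0.561). Over the 5 windows none of these 8 genes was called higher in males either, where 15.3% of all genes tested were, unlike alg-3 and alg-4.

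Of the 16 partners of RNA-dependent RNA polymerases and mutator genes, 14 were called lower in young adult males, where 29.4% of all genes tested were. The 14 were led by the nuclease gene rde-8 (-2.55 ± 0.27, adjusted p = 0.00101), the polymerase gene rrf-1 (-1.82 ± 0.21, adjusted p = 0.00125) and rde-2 (-1.77 ± 0.23, adjusted p = 0.00166). The most abundant of the 16, rde-12, was not called over the 5 windows (-0.48 ± 0.24, adjusted p = 0.163). Of 15 genes listed under piRNA biogenesis, not all of which need act in it, 13 were called lower. Farthest were erh-2 (-3.23 ± 0.30, adjusted p = 0.000777), tost-1 (-2.82 ± 0.32, adjusted p = 0.00124) and tofu-6 (-2.38 ± 0.25, adjusted p = 0.000979). These 3 were picked as the largest of the list, whose median log2 ratio was -1.58, beside -1.12 for prg-1, whose protein binds the piRNAs. The gene tost-1 was also called over the 5 windows (-1.77 ± 0.49, adjusted p = 0.0437).

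Of 8 nuclear RNAi and chromatin genes 7 were called lower in young adult males, where 29.4% of all genes tested were. Among the 7 were the histone methyltransferase gene set-25 (-2.999 ± 0.26, adjusted p = 0.000691), hpl-2, which encodes a heterochromatin protein (-2.01 ± 0.23, adjusted p = 0.00124), and hrde-2 (-1.52 ± 0.24, adjusted p = 0.00328). The most abundant, nrde-2, was not called over the 5 windows (-0.36 ± 0.18, adjusted p = 0.166). Of 11 germ granule genes 10 were called lower, with glh-2 (-2.64 ± 0.22, adjusted p = 0.000648), glh-3 (-1.86 ± 0.21, adjusted p = 0.00115) and pgl-1 (-1.85 ± 0.20, adjusted p = 0.00111) in front, and pgl-1 also over the 5 windows (-1.36 ± 0.26, adjusted p = 0.0245). Of these genes pgl-1, pgl-3, glh-1 and glh-2 are in the shared germline list as well. Of 7 systemic RNAi genes 4 were called lower, including the double-stranded RNA channel gene sid-1 (-2.02 ± 0.21, adjusted p = 0.00103), rsd-2 (-1.26 ± 0.18, adjusted p = 0.00243) and sid-3 (-1.23 ± 0.28, adjusted p = 0.0103), and sid-1 was called over the 5 windows too (-1.21 ± 0.35, adjusted p = 0.0484).

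**Figure D5:**
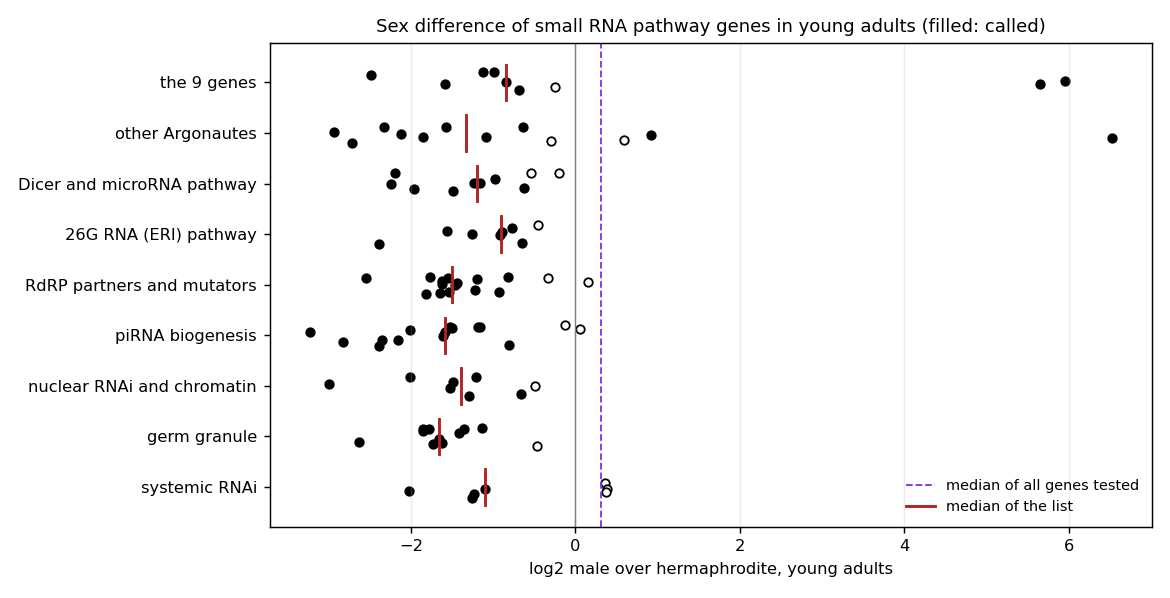
Log2 ratios, male over hermaphrodite, in young adults for the 9 genes and for the tested genes of 8 pathway lists, 1 point per gene with filled points called. Most points lie left of 0, the list medians (solid lines) run from -0.84 to -1.67, and alg-3, alg-4 and wago-10 lie apart at 5.65 to 6.53.

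For each of the 9 genes, the tested genes most alike in course were named by Pearson's r of log2(CPM + 1) over the 10 libraries, a description in which all points share libraries, age and sex. The course of alg-3 was closest to K08C9.2 (r = 0.999), alg-4 (r = 0.999) and the tau tubulin kinase-like gene ttbk-4 (r = 0.998), and that of alg-4 to alg-3, clec-73 (r = 0.998) and K08C9.2 (r = 0.997). Closest to csr-1 were the Aurora kinase gene air-1 (r = 0.995), wee-1.3 (r = 0.99), a kinase gene of the oocyte cell cycle, and syp-4 (r = 0.988), which encodes a synaptonemal complex protein. Closest to wago-1 were the chromosomal kinesin gene klp-19 (r = 0.997), the nuclear RNAi gene nrde-4 (r = 0.996) and cpg-4 (r = 0.995).

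For prg-1 the closest were ZC53.1 (r = 0.992), trr-1 (r = 0.989) and rab-35 (r = 0.989), and for ego-1 C37C3.9 (r = 0.993), oef-1 (r = 0.992), which encodes a germline nuclear factor, and rfc-1 (r = 0.991), a replication factor subunit gene. For drh-3 they were W06B4.1 (r = 0.986), skih-2 (r = 0.985) and the DNA ligase gene lig-4 (r = 0.985). The course of alg-1 was closest to cdh-7 (r = 0.981), mak-2 (r = 0.979) and srw-85 (r = 0.978), and that of alg-2 to the casein kinase subunit gene kin-10 (r = 0.997), the histone gene his-38 (r = 0.978) and the homeobox gene ceh-86 (r = 0.976). With Spearman's rho in place of Pearson's r and tied genes given the same rank, all 3 genes named for alg-3 kept a rank of 3 or better, as did 2 of the 3 for alg-4, 1 each for csr-1, ego-1, drh-3 and alg-2, and none for wago-1, prg-1 and alg-1. Many genes tie at the top over so few libraries. For alg-4, clec-73 had a rho of 0.988 and yet ranked 114, so a kept rank does not single out a gene. Among the 9 genes themselves, ego-1 was close to csr-1 (r = 0.964) and to drh-3 (r = 0.963), while alg-1 and alg-2 had r = -0.31.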

How the data were processed

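Whole-animal RNA of 10 samples, 1 male and 1 hermaphrodite per window, was analysed. Per the labels' protocols, total RNA was taken with TRIzol, treated to remove DNA, and 1 library was made per sample. The authors deposited whole-number counts of reads for each gene. The submitters' processing notes name CASAVA 1.8 and HTSeq. Aligner, build, HTSeq version and strand setting: not given in the sources used here, so reads of overlapping genes on opposite strands may not be told apart. Besides 46589 genes, each table holds 5 totals without a gene name, and neither library sizes nor tests include these. As shares of all reads these were 2.18% to 3.98% on no feature, 0.32% to 0.75% ambiguous, 3.31% to 25.4% not aligned and 11.2% to 17.8% with more than 1 alignment. The last kind counts for no gene, so genes with near-identical copies are uncertain.

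Names, positions (counted from 1) and exon lengths came from the Ensembl annotation of WBcel235, in which 46183 sequence names were found and 406 were not. The genes, the 8 pathway lists, the marker lists and the comparisons were chosen with earlier results of these data known. Of the pathway names asked for, 13 were not found as symbols, and some of these are other names of listed genes.

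Genes with at least 1 CPM by library size in at least 2 libraries (15924) were tested by quasi-likelihood in edgeR 4.0.16 under R 4.3.3. TMM factors came from all 10 libraries, and adjustment (Benjamini-Hochberg, threshold 0.05) ran over all genes tested. The sex difference over 5 windows had window as a block (4 residual degrees of freedom), that in young adults had sex only (2), the slopes had linear time within each sex (6), the difference of slopes had window as a block (3), and the curvatures had linear and squared time within each sex (4). Each approximate standard error is the absolute log2 value over √F, with F from the same test. Separate cultures are not mentioned in the labels. The p-values therefore reflect only how these samples spread, which includes change between windows. No 2 libraries agreed within sampling noise. The steps were tested on simulated data. Alternatives were RLE factors, library size only, other filters, DESeq2 1.42.0, limma-voom (limma 3.58.1), ribosomal RNA and mitochondrial genes left out, fits with or without the block, and each library left out.

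All 9 genes are named in each comparison. From each pathway list the text names up to 3 called genes by size in young adults and up to 2 over the 5 windows, or the most abundant gene where none was called, and for each of the 9 genes the 3 tested genes with the highest Pearson's r.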

Additional observations from a re-analysis of the deposited data

Results flagged for a closer look

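The slope over the course differed between the sexes by a test of the difference itself for wago-1 (male minus hermaphrodite -0.64 per 6 h step on the log2 scale, adjusted p = 0.0256), prg-1 (-0.38, adjusted p = 0.0398) and drh-3 (-0.29, adjusted p = 0.0468). In each case the male slope, -0.03 to 0.09 per step, did not pass the test and the hermaphrodite slope was positive. The curvature over the course, a comparison chosen after the mid-course peak was seen, differed between the sexes for alg-3 (0.95 per squared step, adjusted p = 0.00482) and alg-4 (0.96, adjusted p = 0.00388). Of 18 alternative fits, the call of the slope difference was lost in 8 for wago-1, 11 for prg-1 and 14 for drh-3. That of the curvature difference was lost in 2 of 17 for both alg-3 and alg-4. No group of 4 or more libraries of 1 sex and stage exists, so no library was tested as far from its group.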

How the results depend on the processing

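The main values were 2 of the 9 genes and 3003 of all genes called over 5 windows, 8 and 9946 in young adults, 0 and 94 for slopes in males, 7 and 6016 for slopes in hermaphrodites, 3 and 2519 for the difference of slopes, 0 and 0 for curvature in males, 2 and 977 for curvature in hermaphrodites, and 2 and 543 for the difference of curvatures. At least 5 CPM in 5 libraries gave 0 and 1350 over 5 windows and 61 genes for male slopes. DESeq2 gave 5920 genes over 5 windows, 3 of the 9 and 2007 genes for male slopes, 8 and 5685 for the difference of slopes, and 160 for curvature in males. Limma-voom gave 5258 over 5 windows, 1 and 931 for male slopes, 6 and 3973 for the difference of slopes, and 250 and 34 for curvature in hermaphrodites and its difference. For the difference of slopes, library size only gave 1 and 1407, no filter 1 and 1666, and a fit with no ribosomal RNA or mitochondrial genes 1 and 1487. No filter gave 3 genes for curvature in males.

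Leaving out libraries gave 0 to 2 of the 9 and 116 to 3076 genes over 5 windows, 0 to 136 genes for male slopes, 2623 to 6652 for hermaphrodite slopes, 0 to 5 of the 9 and 0 to 3016 genes for the difference of slopes, 411 to 1146 for curvature in hermaphrodites, and 0 to 2 of the 9 and 0 to 680 genes for its difference. Signs turned only for values that had not passed the test. By library size only, alg-1 was 0.0432 over 5 windows, 0.065 in young adults and 0.0414 for the difference of slopes, and with the 5 CPM filter 0.0058 over 5 windows and 0.0053 for that difference, which was 0.0184 without ribosomal RNA and mitochondrial genes. The male slope of prg-1 was 0.0261 with RLE factors, 0.0262 in DESeq2 and 0.0378 without those genes. Leaving out libraries gave male slopes of alg-2 from -0.28 to 0.054 and hermaphrodite slopes of alg-3 from -1.86 to 0.042.

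Higher genes made up 81.1% of calls over 5 windows (65.0% without ribosomal RNA and mitochondrial genes), 55.4% of hermaphrodite slopes (44.4% by library size), 46.8% of male slopes (66.7% with RLE factors and 67.5% without those genes) and 35.4% of slope differences (55.2% by library size and 57.3% without those genes). In young adults, libraries of the same number share an age window, and nothing in the labels ties them further. The correlation of their deviations was 0.07, and a fit with the replicate block (window) called 8 of the 9 and 8717 genes. Without the block (no replicate block), 2 of the 9 and 3977 genes were called over 5 windows, and 3 and 2697 for the difference of slopes. The cause of these changes was not tested. With 1 library per sex and window, single windows carry no test, and levels near 1 CPM, as for alg-3 and alg-4 in the oldest hermaphrodites, rest on under 30 reads.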

Other observations

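Among the Argonautes outside the 9 genes, sago-1 and ppw-1 were chosen after their values were seen. The hermaphrodite slope per 6 h step was -0.18 ± 0.10 for sago-1 (adjusted p = 0.16) and 0.36 ± 0.07 for ppw-1 (adjusted p = 0.00521 in edgeR with Benjamini-Hochberg adjustment), which was called. The levels of sago-1 were 79.1, 75.4, 68.1, 80.2 and 56.4 CPM in males and 44.7, 72.1, 46.1, 36.2 and 36.0 CPM in hermaphrodites, in order of time. Those of ppw-1 were 39.1, 54.4, 77.7, 89.3 and 80.7 CPM in males and 41.8, 58.8, 59.8, 87.3 and 121 CPM in hermaphrodites. The nuclear Argonaute gene hrde-1, chosen likewise, stood at 141, 181, 226, 265 and 245 CPM in males and 127, 211, 488, 860 and 979 CPM in hermaphrodites. Per kb of exon, alg-4 was 1.02 to 1.22 times alg-3 in males and 0.81 to 1.17 times alg-3 in hermaphrodites.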
